A study of Homo sapiens with 6 samples.

Results

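The NF-kappaB subunit and inhibitor genes described here are the 10 genes NFKB1, RELA, REL, NFKB2, RELB, NFKBIA, NFKBIB, NFKBIE, TNFAIP3 and BCL3, chosen by symbol from the 25287 genes of a single comparison of RNA sequencing libraries. All 10 were found in the table. The cells were NCI-H1299, an established human lung line labelled as adenocarcinoma, grown in RPMI1640 with fetal bovine serum. There were 3 libraries of cells carrying a short hairpin RNA against ALDH18A1 and 3 with a control hairpin, each made from total RNA. The labels' protocols nevertheless call the libraries RIP-seq libraries, so the labels do not settle whether the values measure expression. The values are read below as transcript levels. ALDH18A1 encodes P5CS, a mitochondrial enzyme of proline and ornithine synthesis that the series title presents as an RNA-binding protein. Separate cultures or clones behind these libraries, the hairpin sequence and the time of expression are not named in the labels, so p-values may measure technical spread only.

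The file gives, for each gene, the authors' mean normalized count over the libraries, a log2 fold change with its standard error (SE) and a p-value with its adjustment. It gives no value per library, so replicate values, library depths and overlap between replicates cannot be shown. Its headers do not say which group stands in the numerator of the fold change. ALDH18A1 itself does not settle this, since its log2 fold change in the authors' deposited table was -0.08 (SE 0.07) with a DESeq2 adjusted p = 0.471. Its 95% interval was -0.22 to 0.07, at a mean normalized count of 2661. A lower ALDH18A1 transcript level in the cells with its hairpin was thus not seen here. The values below therefore do not rest on a shown depletion of that transcript. Because the numerator is not named, the groups are called the numerator group and the denominator group. A negative log2 fold change means a lower level in the numerator group, whichever hairpin that was. A gene was called at an adjusted p under 0.05. Of 6 epithelial markers, KRT8 and KRT18 had mean normalized counts of 18965 and 14244 in the authors' deposited table, and EPCAM, CDH1, KRT7 and KRT19 lay between 5.77 and 41.4. KRT8 (log2 fold change 0.32, SE 0.06) and KRT18 (0.61, SE 0.06) were called on the positive side by the authors' deposited table. Of 3 mesenchymal markers, VIM (mean normalized count 24591) was called at -0.48 (SE 0.06), FN1 at 1.10 (SE 0.08), and CDH2 was not called, by the authors' deposited table. The part of these differences in the results below was not tested. Of 5 lung adenocarcinoma markers, SFTPB had a mean normalized count of 4.49 in the authors' deposited table and the other 4 were not analysed here. Among 7 immune cell markers, the 3 with a row in the authors' deposited table (PTPRC, CD14 and LYZ) had mean normalized counts between 2.22 and 21.3. CD14, at 21.3, was the immune marker called, at 2.33 (SE 0.58) with a DESeq2 adjusted p = 0.00018 by the authors' deposited table, and its part in the results below was not tested.

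NF-kappaB is a family of dimeric transcription factors built from the products of NFKB1, NFKB2, RELA, RELB and REL. In the canonical pathway, dimers such as p50 with RelA are held in the cytoplasm by IkB proteins until the IKK complex marks these for degradation. In the noncanonical pathway, the kinase NIK leads to processing of p100, the NFKB2 product, which frees dimers of p52 with RelB. Several genes of the pathway are themselves induced by NF-kappaB. NFKBIA and TNFAIP3 are the textbook feedback inhibitors, and NFKB1, NFKB2, RELB, NFKBIE and BCL3 are also known as targets.

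Of the 10 genes, 9 were called on the negative side and none on the positive side, and REL was the gene not called. In bulk RNA, fewer cells with a transcript and less of it per cell cannot be told apart. At an unadjusted p under 0.05 by the same DESeq2 test, there were again 9 on the negative side and 0 on the positive side. Over all genes of the authors' deposited table, 42.4% were called, 21.5% on the negative side and 20.9% on the positive side. Abundant genes were called more often. Among the 9230 genes whose mean normalized count lay in the range of the 10 members, 75.7% were called and 42.3% were called on the negative side. A log2 fold change of -1 or below together with the call was reached by 8 of the 10 members, BCL3 just inside it at -1.01 and NFKBIB outside it at -0.75. The same held for 7.06% of all genes and for 9.39% of the 9230 genes of like mean count. The median log2 fold change of the members was -1.40 in the authors' deposited table, against 0.03 over all genes and -0.10 over those of like mean count. These counts describe genes that were chosen with earlier results of these data known.

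**Figure D1:**
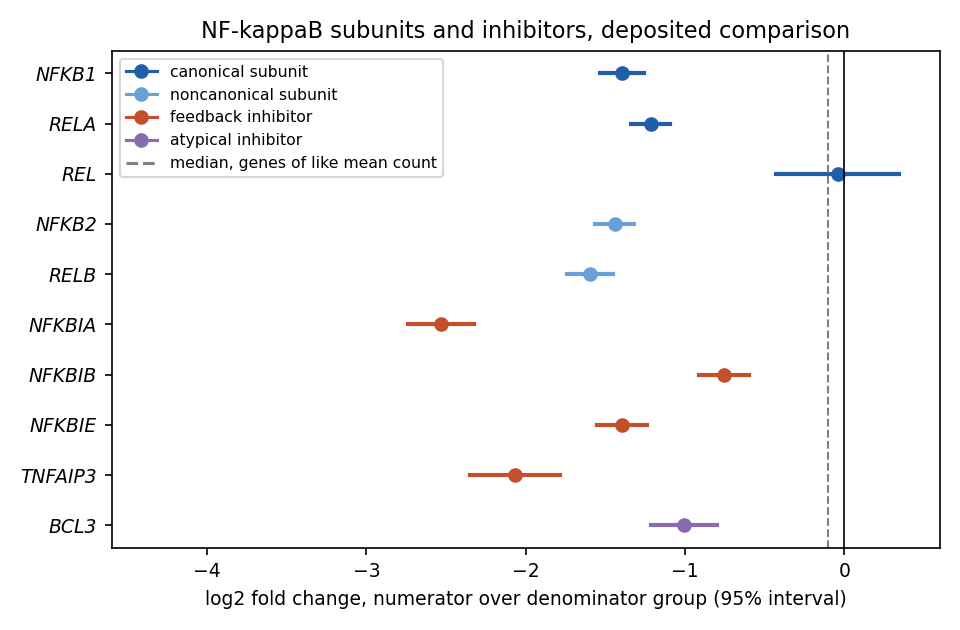
Log2 fold change of each of the 10 genes in the authors' deposited table (points) with its 95% interval (bars), coloured by role; the dashed line is the median of -0.10 over genes of like mean count. All intervals lie below 0 except that of REL, and NFKBIA and TNFAIP3 lie farthest to the left.

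**Figure D2:**
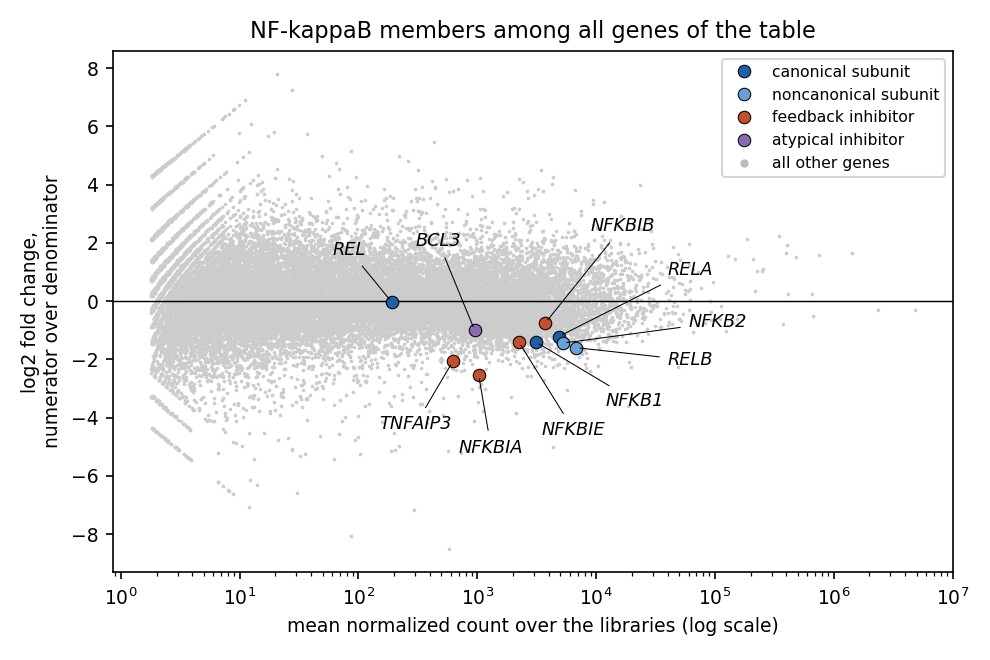
Mean normalized count (log scale) against log2 fold change for every gene of the authors' deposited table (grey) and for the 10 genes (coloured by role). The members lie at mean normalized counts from 192 (REL) to 6787 (RELB), and 9 of them sit in the lower part of the cloud.

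Of the canonical subunit genes, NFKB1 and RELA were called on the negative side and REL was not. NFKB1 (chromosome 4, 102501329 to 102617302, GRCh38, plus strand) encodes p105, the precursor of the p50 subunit. Its mean normalized count was 3104 in the authors' deposited table. The fold change and mean together imply group means of 1709 in the numerator group and 4499 in the denominator group, if the groups are of equal size. The log2 fold change of NFKB1 was -1.40 (SE 0.07, 95% interval -1.53 to -1.26, DESeq2 adjusted p = 4.5e-85) by the authors' deposited table, a level 2.63-fold lower in the numerator group. RELA (chromosome 11, 65653596 to 65663094, minus strand) encodes p65, the transactivating partner of p50. Its implied means were 2911 in the numerator group and 6761 in the denominator group. Its log2 fold change of -1.22 (SE 0.06, interval -1.34 to -1.09, DESeq2 adjusted p = 2.0e-80) by the authors' deposited table was close to that of NFKB1, and the difference of -0.18 between the genes had an interval of -0.37 to 0.01. This interval, and those of the other gene pairs below, treats the errors of the genes as independent, although genes of the same libraries can share error. A difference between members does not depend on how the libraries were scaled.

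REL (chromosome 2, 60881521 to 60931610, plus strand) encodes c-Rel, a subunit best known from lymphoid cells. Its implied means were 189 in the numerator group and 194 in the denominator group. The log2 fold change was -0.04 (SE 0.20, interval -0.43 to 0.35, DESeq2 adjusted p = 0.908) by the authors' deposited table. This interval leaves out a change as large as that of NFKB1 or RELA, and the difference of RELA minus REL was -1.17 (interval -1.58 to -0.77). REL was also the least abundant member in the authors' deposited table, and its SE was the largest of the 10. An annotated noncoding gene on the same strand, AC010733.2, covers 43.3% of the exon bases of REL in GENCODE release 29. How the authors' counting treated reads in that stretch is unknown here, so the level of REL per length is uncertain.

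The promoters of the 3 canonical subunit genes are shown because these genes differ both in sequence and in value. Each is the RefSeq window on GRCh38.p14 from 250 bases before to 50 bases after the start site nearest to the 5′ end of the gene in GENCODE, written 5′ to 3′ on the strand of the gene. Capitals mark matches to the kappaB motif, the sequence that NF-kappaB dimers bind, searched on both strands as GGGA or GGGG followed by any 4 bases and CC, with overlapping matches counted separately. The windows are chr4:102501109-102501408 (plus strand) for NFKB1, chr11:65662867-65663166 (minus strand) for RELA and chr2:60881324-60881623 (plus strand) for REL.
NFKB1: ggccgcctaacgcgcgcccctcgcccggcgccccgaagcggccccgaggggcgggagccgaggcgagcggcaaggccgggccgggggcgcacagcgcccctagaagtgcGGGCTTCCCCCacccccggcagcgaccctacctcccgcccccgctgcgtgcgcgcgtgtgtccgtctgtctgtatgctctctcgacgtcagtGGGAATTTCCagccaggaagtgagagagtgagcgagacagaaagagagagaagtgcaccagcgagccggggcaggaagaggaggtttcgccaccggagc
RELA: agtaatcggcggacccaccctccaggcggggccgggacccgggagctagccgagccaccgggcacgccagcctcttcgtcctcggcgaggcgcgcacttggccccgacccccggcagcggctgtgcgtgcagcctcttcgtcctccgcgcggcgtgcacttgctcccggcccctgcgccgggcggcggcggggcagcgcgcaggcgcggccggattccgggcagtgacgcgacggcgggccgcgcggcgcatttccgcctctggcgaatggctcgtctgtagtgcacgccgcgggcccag
REL: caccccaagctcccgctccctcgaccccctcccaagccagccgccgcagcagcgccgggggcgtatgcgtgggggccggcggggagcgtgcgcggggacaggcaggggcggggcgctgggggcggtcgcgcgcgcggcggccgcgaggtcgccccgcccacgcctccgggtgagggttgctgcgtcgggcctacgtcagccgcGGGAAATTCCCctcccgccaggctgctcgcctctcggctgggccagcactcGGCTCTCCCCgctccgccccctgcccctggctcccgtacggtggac
The window of NFKB1 held 3 matches, of which GGGAATTTCC lay 49 bases before the start site and an overlapping pair 141 and 140 bases before it. No match to these letters was found in the window of RELA, which was called on the negative side. The start site of that window lay 178 bases from the 5′ end of RELA in GENCODE. RELA had 2 RefSeq windows, and matches in its other window were not examined. In the window of REL, which was not called, there were 3 matches, with GGGAAATTCC and its overlapping reverse-strand match 47 and 46 bases before the start.

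Both noncanonical subunit genes were called on the negative side with similar values. NFKB2 (chromosome 10, 102394110 to 102402529, plus strand) encodes p100, which acts as an inhibitor until it is cut to p52. Its implied means were 2820.1 in the numerator group and 7652 in the denominator group. The log2 fold change was -1.44 (SE 0.06, interval -1.56 to -1.32, DESeq2 adjusted p = 1.1e-116) by the authors' deposited table, or 2.71-fold lower in the numerator group. RELB (chromosome 19, 45001430 to 45038198, plus strand) encodes the partner of p52 and p100. Implied means for RELB were 3376 in the numerator group and 10197 in the denominator group. It had the highest mean normalized count of the 10, 6787, and a log2 fold change of -1.59 (SE 0.07, interval -1.74 to -1.45, DESeq2 adjusted p = 8.9e-104) by the authors' deposited table.

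Setting the canonical and noncanonical arms side by side, NFKB2 differed from its paralogue NFKB1 by -0.04 on the log2 scale (interval -0.23 to 0.14). The difference of RELB minus RELA was -0.38 (interval -0.57 to -0.19), so the transcript ratio of RELB to RELA was 1.30-fold lower in the numerator group. RELB and NFKB2, the noncanonical partners, differed by -0.15 (interval -0.34 to 0.03). The median log2 fold change was -1.52 for the noncanonical pair and -1.22 for the 3 canonical genes, REL included.

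Levels were compared between genes per kilobase of annotated exon, taking the union of all exons in GENCODE release 29. On this scale the implied level of RELB was 1112 counts per kb in the numerator group and 3359.9 in the denominator group, the highest of the 5 subunit genes in both. NFKB2 followed with 629 counts per kb in the numerator group and 1706 in the denominator group. RELA had 533 in the numerator group and 1237 in the denominator group, and NFKB1 had 273 in the numerator group and 719 in the denominator group. REL had 14.3 counts per kb in the numerator group and 14.8 in the denominator group. RELB therefore made up 43.4% of the summed subunit level per kb in the numerator group and 47.7% in the denominator group. The share of RELA was 20.8% in the numerator group and 17.6% in the denominator group, while NFKB1 and NFKB2 held 10.7% and 24.6% in the numerator group and 10.2% and 24.2% in the denominator group. The order of the 5 genes was the same in both groups, and the summed level was 2562 counts per kb in the numerator group against 7037 in the denominator group. No spread over libraries can be given for these levels, so neighbours in the order were not tested. The levels, order and shares also depend on the exon union taken as gene length, here and for the IkB genes below. Another length was not tried.

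**Figure D3:**
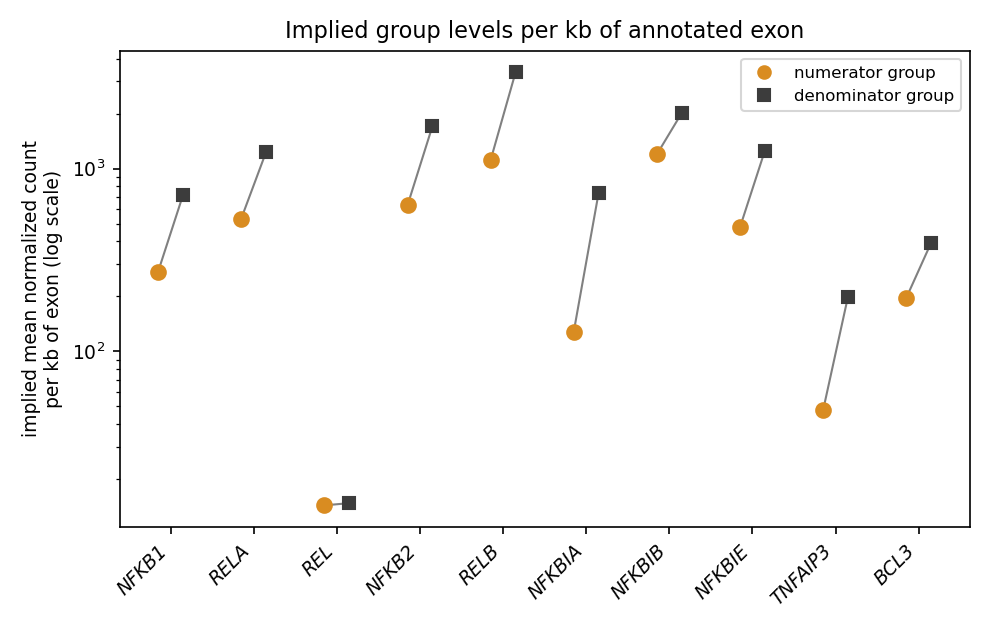
Implied mean normalized count per kb of annotated exon (log scale) for the 10 genes in the numerator group (circles) and the denominator group (squares), computed from the authors' deposited mean and fold change with equal group sizes assumed. The circle lies well below the square for 9 genes, with the widest gap for NFKBIA (128 against 738), and the REL symbols lie side by side.

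The feedback inhibitors, here NFKBIA, TNFAIP3, NFKBIE and NFKBIB, spanned the widest range of the roles, from -2.53 to -0.75. The upper end is set by NFKBIB, so this ranking depends on counting it as a feedback inhibitor. NFKBIA (chromosome 14, 35401511 to 35404749, minus strand) encodes IkB-alpha, the inhibitor that NF-kappaB induces to end its own response. It had a mean normalized count of 1027 in the authors' deposited table, with implied means of 303 in the numerator group and 1751 in the denominator group. The log2 fold change was -2.53 (SE 0.11, interval -2.74 to -2.32, DESeq2 adjusted p = 1.8e-124) by the authors' deposited table, a level 5.78-fold lower in the numerator group and the lowest value among the 10 genes. Only 1.78% of all genes in the authors' deposited table had a lower log2 fold change. TNFAIP3 (chromosome 6, 137867188 to 137883312, plus strand) encodes A20, a ubiquitin-editing enzyme that stops signalling upstream of IKK. Implied means for TNFAIP3 were 239.6 in the numerator group and 1005 in the denominator group. Its log2 fold change was -2.07 (SE 0.14, interval -2.35 to -1.78, DESeq2 adjusted p = 5.9e-45) by the authors' deposited table, 4.19-fold lower in the numerator group, and 2.99% of all genes lay below it.

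The other IkB genes had smaller differences. NFKBIE (chromosome 6, 44258166 to 44265788, minus strand) encodes IkB-epsilon, another inducible inhibitor. Its implied means were 1229 in the numerator group and 3236 in the denominator group, with a log2 fold change of -1.40 (SE 0.08, interval -1.56 to -1.24, DESeq2 adjusted p = 6.1e-65) by the authors' deposited table. NFKBIB (chromosome 19, 38899700 to 38908893, plus strand) encodes IkB-beta, which is known as less inducible than IkB-alpha. Its implied means of 2779 in the numerator group and 4682 in the denominator group had the ratio closest to 1 among the called members. The log2 fold change of NFKBIB was -0.75 (SE 0.08, interval -0.91 to -0.59, DESeq2 adjusted p = 8.7e-20) by the authors' deposited table, or 1.69-fold lower in the numerator group. The exons of NFKBIB share 40 bases with those of SIRT2 on the opposite strand, which lay at -0.67 (log2, SE 0.08) in the authors' deposited table with a DESeq2 adjusted p = 1.2e-16. Whether the authors counted by strand is unknown (not given in the sources used here), so a small part of the NFKBIB reads could belong to SIRT2 and the reverse.

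Within the IkB genes the balance of transcripts differed between the groups. NFKBIA minus NFKBIB was -1.78 on the log2 scale (interval -2.04 to -1.52), a ratio 3.43-fold lower in the numerator group. NFKBIA minus NFKBIE was -1.13 (interval -1.40 to -0.87), and NFKBIE minus NFKBIB was -0.64 (interval -0.87 to -0.42). Per kb of exon, NFKBIA made up 7.10% of the summed level of the 3 IkB genes in the numerator group and 18.4% in the denominator group. NFKBIB made up 66.4% in the numerator group and 50.3% in the denominator group, and NFKBIE 26.5% in the numerator group and 31.3% in the denominator group. The summed IkB level was 1800 counts per kb in the numerator group against 4006 in the denominator group. Relative to the summed subunit level it stood at 0.702 in the numerator group and 0.569 in the denominator group. For NFKBIA alone, the difference from RELA was -1.32 (interval -1.56 to -1.07) and that from NFKB1 was -1.13 (interval -1.38 to -0.89). TNFAIP3 and NFKBIA, the feedback inhibitors with the lowest values, differed by 0.46 (TNFAIP3 minus NFKBIA, interval 0.11 to 0.81).

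The promoters of NFKBIA and TNFAIP3 are shown because these genes had the lowest values of the members. They are the RefSeq windows chr14:35404700-35404999 (minus strand) and chr6:137867009-137867308 (plus strand) on GRCh38.p14, with kappaB matches in capitals as above.
NFKBIA: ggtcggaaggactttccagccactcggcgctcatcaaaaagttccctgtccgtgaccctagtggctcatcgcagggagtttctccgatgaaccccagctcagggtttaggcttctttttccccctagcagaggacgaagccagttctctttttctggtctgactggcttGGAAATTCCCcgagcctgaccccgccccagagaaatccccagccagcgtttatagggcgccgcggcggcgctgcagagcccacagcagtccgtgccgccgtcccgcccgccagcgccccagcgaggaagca
TNFAIP3: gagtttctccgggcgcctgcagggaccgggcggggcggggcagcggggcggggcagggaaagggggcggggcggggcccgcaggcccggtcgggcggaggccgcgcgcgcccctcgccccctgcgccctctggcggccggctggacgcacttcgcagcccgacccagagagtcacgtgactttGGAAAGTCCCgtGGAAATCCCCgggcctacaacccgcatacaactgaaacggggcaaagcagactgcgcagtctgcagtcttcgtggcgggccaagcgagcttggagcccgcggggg
The NFKBIA window held 1 match, GGAAATTCCC, 81 bases before the start site. In the TNFAIP3 window there were 2 matches, GGAAAGTCCC at 67 and GGAAATCCCC at 55 bases before the start. The same letters as in NFKBIA occur in REL, whose interval spans 0. Of the 8 members with a promoter in the RefSeq table, 7 held at least 1 match in the chosen window. Of these 7, 6 were called on the negative side, as was RELA without a match in its chosen window. Matches were common in general, since 47.6% of 20062 windows of genes in the table and 40.7% of all 35116 windows held at least 1. These shares count every window, the 20062 belonging to 14109 genes, while each member was counted by 1 chosen window. NFKB1, RELA and NFKBIB had 2 windows each and NFKB2 had 3. The members' windows were also richer in G and C, at 71.3% against 61.7% for the genes in the table (share of G and C bases), and the part of this in the share of matches was not tested. NFKB2 had 1 match, 24 bases before the start, and NFKBIB 1 match, 20 bases before it. BCL3 had 3 matches, 2 of them overlapping just after the start site. That RefSeq start site lay 1003 bases from the 5′ end of BCL3 in GENCODE.

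**Figure D4:**
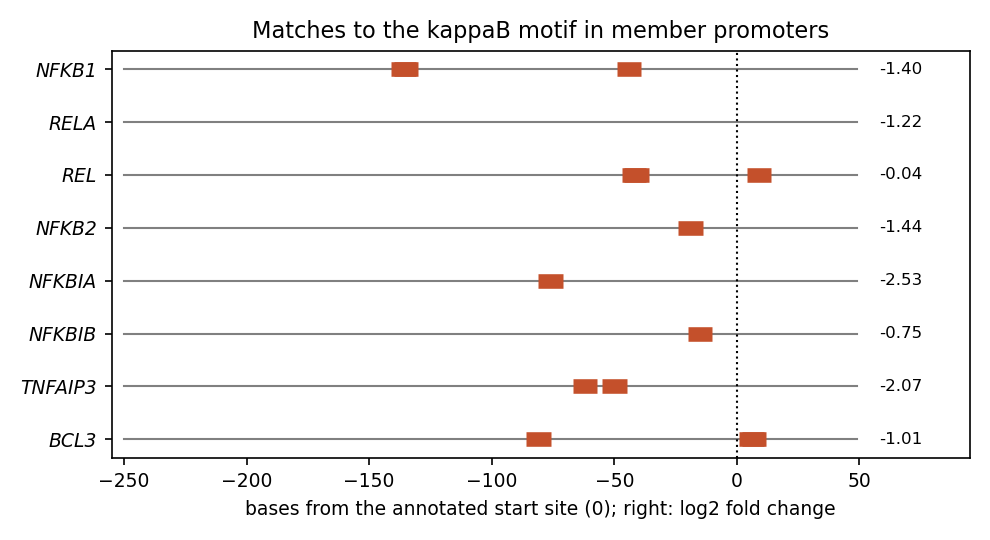
Positions of kappaB motif matches (red blocks) in the promoter windows of 8 members, as bases from the start site (dotted line), with each gene's log2 fold change at the right. RELA has no block in its chosen window and a log2 fold change of -1.22, and REL has blocks and a log2 fold change of -0.04.

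BCL3 (chromosome 19, 44747705 to 44760044, plus strand) encodes an atypical IkB protein that binds p50 or p52 dimers in the nucleus and can activate transcription. Its mean normalized count was 952 in the authors' deposited table, with implied means of 633 in the numerator group and 1271 in the denominator group. The log2 fold change was -1.01 (SE 0.10, interval -1.21 to -0.80, DESeq2 adjusted p = 7.5e-21) by the authors' deposited table, 2.01-fold lower in the numerator group. BCL3 lay above NFKB2, the source of its p52 partner, by 0.43 (interval 0.20 to 0.67).

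The genes lie on 7 chromosomes, and the genes around them were called on both sides. Within 100 kb of the members the table lists 45 other protein-coding genes, of which 12 (26.7%) were called on the negative side and 13 on the positive side, with a median log2 fold change of 0.09. For all 14795 protein-coding genes of the table, 30.5% were called on the negative side and the median was -0.02. The 2 neighbours of NFKB1 were both on the positive side, at 1.45 and 1.46 in the authors' deposited table, against -1.40 for NFKB1. All 3 neighbours of BCL3 together had a median of 1.17, and those of NFKB2 a median of -0.57. NFKBIA and TNFAIP3 had no listed protein-coding gene within 100 kb.

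Other genes of the pathway were taken from lists of signalling components and targets. Of 16 listed activating kinases and adaptors, 15 were in the authors' deposited table and MALT1 was not analysed here. Of these 15, 10 were called on the negative side and 1 on the positive side, with a median log2 fold change of -0.68. None reached -1. On the negative side these calls were 66.7% of the list, beside 21.5% of all genes, 42.3% of genes in the members' range of mean count, and 2855 of the 5706 genes with a mean normalized count of at least 1000. The median mean count of the list was 1149.8. On the positive side the call was 6.67% of the list, beside 20.9% of all genes and 33.2% of genes with a mean normalized count of at least 1000. TAB2 (-0.91, SE 0.07), an adaptor of the kinase TAK1, MAP3K7 (-0.87, SE 0.07), which encodes TAK1, and BCL10 (-0.97, SE 0.08), an adaptor of antigen receptor signalling, had the smallest adjusted p-values on the negative side within these 15 genes, by the authors' deposited table. IKBKE, which encodes an IKK-related kinase, was the positive call at 0.94 (SE 0.40), with a mean normalized count of 49.2 and a DESeq2 adjusted p = 0.0438 by the authors' deposited table.

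Ubiquitin ligases, deubiquitinases and their adaptors had 13 of 19 called on the negative side and 1 on the positive side in the authors' deposited table, and their median was -0.83. RNF31 and ITCH, also among the 21 genes of this list, were not analysed here. The negative share was 68.4%, to be read beside the same shares of all genes and of abundant genes, since the median mean count of this list was 1725. TNIP1, which encodes an A20-binding adaptor, had a mean normalized count of 10426 and a value of -2.23 (SE 0.06) in the authors' deposited table, and it is also among the targets below. TNIP2, another A20-binding adaptor gene, lay at -1.72 (SE 0.06) and the deubiquitinase gene OTUD7B at -1.20 (SE 0.07), and the positive call was the adaptor gene TRAF5 at 0.36 (SE 0.15, DESeq2 adjusted p = 0.0395), all by the authors' deposited table. Like IKBKE, TRAF5 was not called at an adjusted p under 0.01 or under either shift of the fold changes, which left 0 positive calls in either list. Among other inhibitors and modulators 8 of 14 (57.1%) were negative and 2 positive, with a median of -0.37. The median mean count of this list was 625, and 39.9% of genes with a mean normalized count of at least 100 were called on the negative side. The positive calls were 14.3% of the list, beside 20.9% of all genes and 34.1% of genes with a mean normalized count of at least 100. Negative calls in the authors' deposited table included NKIRAS2 (-0.81, SE 0.09) and NFKBIL1 (-1.16, SE 0.14). NFKBID, which encodes an atypical IkB protein related to BCL3, was positive at 0.86 (SE 0.15, DESeq2 adjusted p = 3.8e-08) by the authors' deposited table.

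Known target genes were called on both sides. The list held 40 genes, of which 32 in the authors' deposited table are counted below. CXCL5, CXCL8, CXCL10, CCL5, IL1B, IL6, TNF and IRF1 of this list were not analysed here. Of the 32, 12 were called on the negative side, 8 on the positive side and 12 not called, and the median was -0.23. The cytokine gene IL32 (-3.04, SE 0.07), with implied means of 1232 in the numerator group and 10117 in the denominator group, and the adaptor gene TRAF1 (-2.57, SE 0.09) lay on the side of NFKBIA in the authors' deposited table. ICAM1, an adhesion molecule gene, lay opposite at 0.98 (SE 0.13, DESeq2 adjusted p = 1.6e-12), with PTGS2 (2.49, SE 0.37) and CD83 (0.56, SE 0.09) in the authors' deposited table. PTGS2 had a mean normalized count of 55.7 in the authors' deposited table, so few reads support its value. The negative calls were 37.5% of these targets, beside 39.9% of genes with a mean normalized count of at least 100 and 21.5% of all genes. The positive calls were 25.0% of them, beside 34.1% of genes with a mean normalized count of at least 100 and 20.9% of all genes. The median mean count was 223 for the targets, 978 for genes with a mean normalized count of at least 100 and 63.7 for all genes. Some targets, such as PTGS2, lay under 100, so neither set is matched to the targets in abundance.

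**Figure D5:**
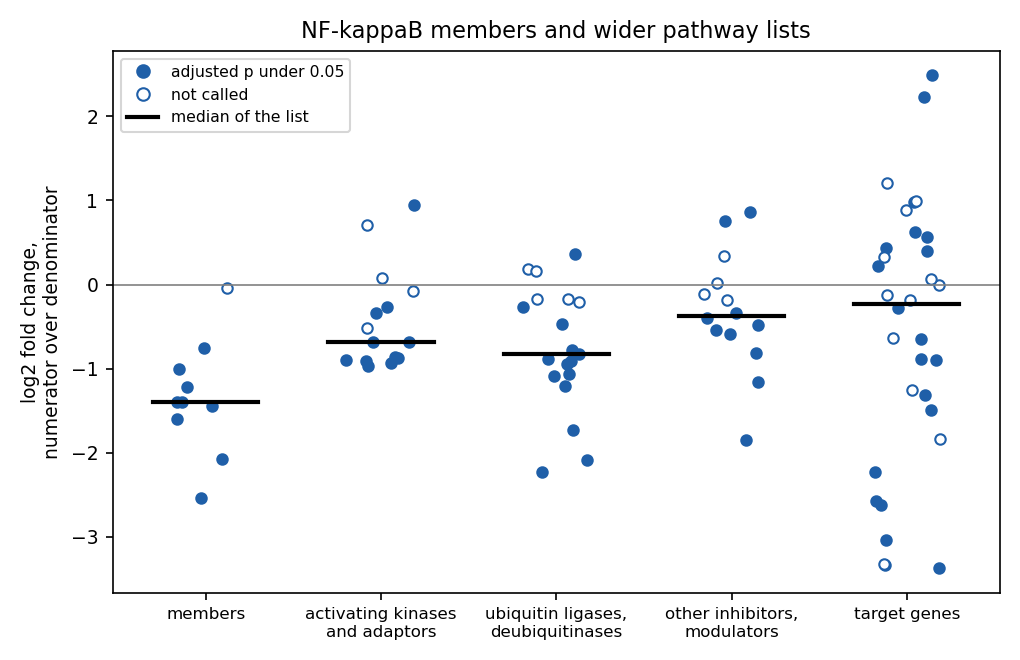
Log2 fold change in the authors' deposited table for the 10 members and for the genes of 4 wider pathway lists (filled, adjusted p under 0.05; open, not called), with list medians as bars. The medians run from -1.40 for the members over -0.83 for the ubiquitin ligases, deubiquitinases and their adaptors and -0.68 for the kinases and adaptors. They end at -0.37 for other inhibitors and modulators and -0.23 for the targets, whose points lie on both sides of 0.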

How the data were processed

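The authors used fastp 0.23.2, STAR 2.7.10a, featureCounts and DESeq2 with hg38, per the submitters' processing notes. The labels' protocols name a phenol-based extraction and a TruSeq kit, and call the libraries RIP-seq libraries although the molecule is total RNA. The mean normalized count is a signal that the authors scaled and averaged over libraries. The fold change and SE that the authors deposited are on a log2 scale, as DESeq2 writes them, since the file headers give no base. The authors deposited the Wald statistic, a score, along with each p-value and its adjusted p-value. No test was added.

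From 25289 rows, 25287 genes remained after equal rows were removed. The statistic equals fold change over SE within 2.24e-13, and a Benjamini-Hochberg adjustment gives the deposited adjusted p within 1.39e-15. Intervals of 95% are the fold change plus or minus 1.96 SE, and cover the error that the authors' DESeq2 fit estimated. The mean normalized counts add up to 43175646, and library depths are unknown. Genes with mean counts of 100 to 1000 had a median SE of 0.152, and those of 1000 to 10000 a median SE of 0.0791. Implied group means follow from the mean and fold change with equal group sizes. Exon lengths, positions and overlaps come from GENCODE release 29 on GRCh38, which held all 10 members. Promoters come from a table of RefSeq windows on GRCh38.p14, used here for 8 members (not for NFKBIE and RELB).

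Members, lists and tests were chosen with earlier results of these data known. The naming rule took all members and, of each list, up to 3 genes per side with the smallest adjusted p among those called. Genes that overlap a member were also named, and a few named by these rules are left out here. The genes of like mean count and the neighbours within 100 kb were added after the values were seen. Alternatives were other thresholds, shifted fold changes, a looser motif and a filter on mean counts under 10. Shifts and adjustment were tested on simulated data. Software was Python 3.11.15 with scipy 1.17.1, pandas 2.3.3, numpy 2.4.6 and matplotlib 3.10.9.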

Additional observations from a re-analysis of the deposited data

How the results depend on the processing

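The 9 negative calls among the members were also 9 at an adjusted p under 0.01, at an unadjusted p under 0.05, with a minimum mean count of 10 and under both shifts of the fold changes, and 8 with the added demand of a log2 fold change of 1 or more in size, which leaves out NFKBIB. A shift that sets the implied totals of both groups equal moved all log2 fold changes by -0.12, and one that sets the median of all genes to 0 moved them by -0.03. Both shifts moved values farther to the negative side, and every member had a mean normalized count of 192 or more. The largest DESeq2 adjusted p of the 9 was 8.7e-20, for NFKBIB. These settings, other than the demand on size, could therefore hardly remove a negative call. Under equal totals NFKBIB stood at -0.87, NFKBIA at -2.65 and REL at -0.16 (adjusted p = 0.587).

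With that demand, calls over all genes were 1785 negative and 2765 positive. Negative calls were then 0 for activating kinases and adaptors, 6 for ubiquitin ligases, deubiquitinases and their adaptors, and 2 for other inhibitors and modulators. Positive calls were 0, 0 and 0 for these lists and 2 for targets. The single positive calls of the kinase and adaptor list and of the ubiquitin list became 0 at an adjusted p under 0.01 and under both shifts. Each became 2 at an unadjusted p under 0.05. These changes follow from the thresholds and shifts themselves. With a looser motif, GG and CC with any 6 bases between them, 100% of the members' promoters and 85.7% of windows of genes in the table held a match.

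No paired analysis was possible because the table holds no values per library; fits without each replicate in turn were not run for the same reason. REL, the least abundant member, had the widest interval.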
